A study of Mus musculus with 96 samples.

Results

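Interferon gamma (IFNG), the cytokine through which T and NK cells activate macrophages, was given at 5 nM for 1 h to RAW 264.7 cells, a mouse macrophage-like line grown from a virus-induced tumour, and the RNA was set against that of cells left untreated over the same 1 h. The comparison took 6 of the 96 arrays of the series, chosen by their labels. They form 3 sets, each hybridised on 2 two-colour arrays with the dyes exchanged. For the times and ligands set beside it, IFNG was given alone at 5 nM for 2 h and 4 h, and lipopolysaccharide (LPS), the Gram-negative cell wall component sensed by Toll-like receptor 4, was given at 100 ng (no volume is stated) with 100 pM LPS-binding protein for 1 h. Each of those groups also comprised 3 sets on 6 arrays, against untreated cells of its own time. The choice of genes tested and the spread behind the p-values also drew on the other groups of the series. These were LPS alone at other times, and 2-methyl-thio-ATP alone, LPS with IFNG and LPS with 2-methyl-thio-ATP for 1 h, 2 h and 4 h. All cells are of 1 line, no group carries a genetic change, and separate cultures for each set are not stated in the labels, so the p-values rest on a spread between sets that may be technical.

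IFNG binds a receptor made of Ifngr1 and Ifngr2 chains, whose kinases Jak1 and Jak2 relay the signal to transcription factors in the nucleus. Gamma activated sequences are the DNA elements of first target genes such as Irf1, whose protein binds interferon response elements at further targets. Socs1 is induced as well, and its protein blocks the kinases. In macrophages the pathway is known for GTPases that attack intracellular pathogens, for chemokines that recruit T cells and for antigen presentation.

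Of 16281 probes, 14201 to 14828 gave a value on each of the 6 arrays. Values are given as log2 of treated over untreated, where 1 is a 2-fold rise, and a set value is the mean of both dye orders. They hold no expression levels, so the presence of macrophage markers could not be checked. Of 11 macrophage markers tested, limma called 0 changed (0 at an unadjusted p under 0.05), with means from -0.23 to 0.10. The shares called over all features were 1.00% higher and 0.129% lower. Before signs were turned, arrays of the same dye order correlated at 0.383 to 0.718 over all probes, while the dye-swapped arrays of sets 1, 2 and 3 correlated at 0.112, 0.22 and -0.023, so that the array-wide pattern followed the dye more than the treatment. Fitted over all 96 arrays, a dye term passed the test for 9461 of 11589 features, and a constant dye term cancels in the mean of both dye orders. The set values of sets 1 and 2, 1 and 3, and 2 and 3 correlated at 0.553, 0.186 and 0.459 over genes.

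Within 1 h of IFNG the largest rises were those of Irf1, a transcription factor, the immunity-related GTPases Irgm2 and Iigp1, and Socs1, a feedback inhibitor, and the largest fall was that of Myc. The test, a linear model over all 48 set values of the series (limma) adjusted by Benjamini-Hochberg, ran on 11589 features, of which 9751 are named genes and 1838 are probes with no name here. At an adjusted p under 0.05, 116 rose (1.00%) and 15 fell (0.129%). A change of at least 2-fold was seen in 41 of those that rose and in 3 of those that fell. The median over all features was -0.0079, and the median standard error was 0.113. With all groups reduced to 2 sets, 76 rose and 4 fell without set 1, 77 and 6 without set 2, and 112 and 16 without set 3. In each of those fits 74, 76 and 100 of the 116 were still called, and 60 of the 116 and 2 of the 15 were called in all 3.

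**Figure D1:**
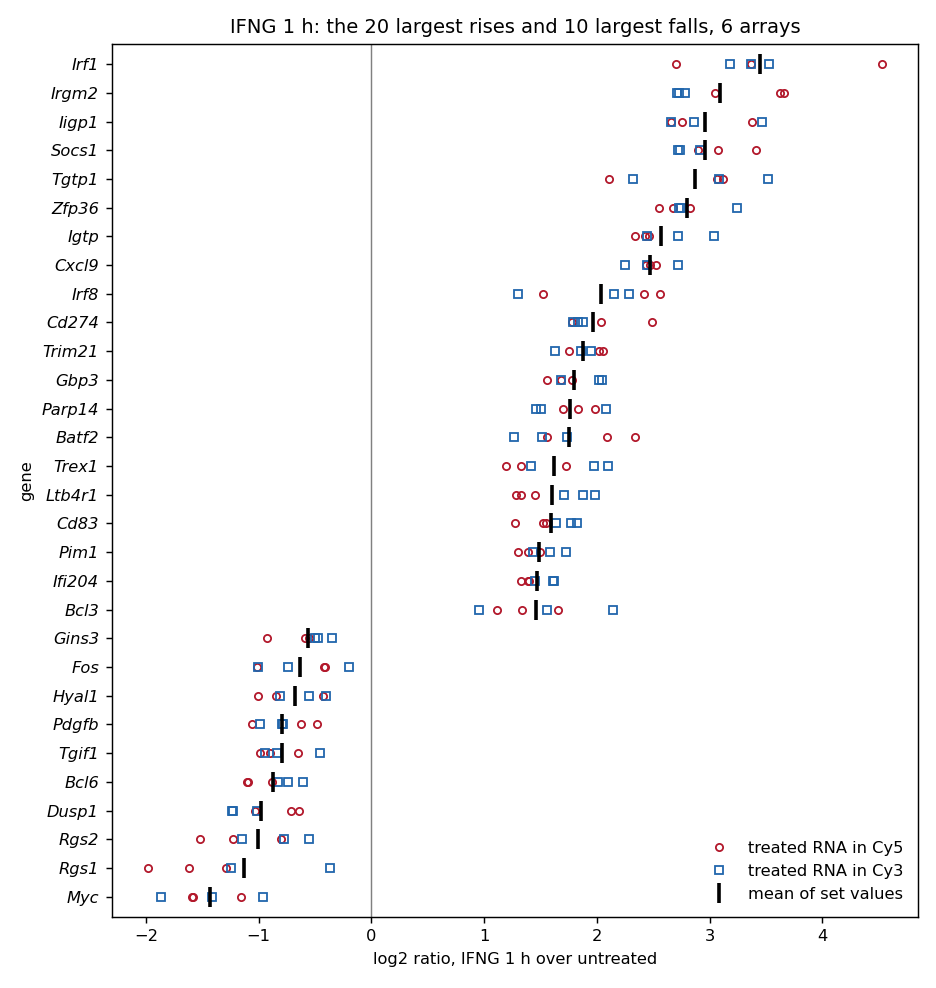
The log2 ratio of IFNG 1 h over untreated on each of the 6 arrays is plotted for the 20 named genes with the largest rises and the 10 with the largest falls, with circles for arrays with treated RNA in Cy5, squares for treated RNA in Cy3 and a bar for the mean of the set values. The genes were picked among those with 1 sign on at least 5 arrays, which sets the side of 0 on which the points lie, and the means run from 3.45 for Irf1 to -1.43 for Myc.

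Irf1, the interferon-induced transcription factor, was the most raised gene tested. Its log2 ratios were 3.44, 2.95 and 3.95 in sets 1 to 3, a mean of 3.45 ± 0.50 (SD, n = 3) or 10.9-fold (adjusted p = 4.79e-17). Irf8, a transcription factor of the myeloid lineage, had 2.35, 2.35 and 1.41 in the 3 sets, a mean of 2.04 ± 0.55 (adjusted p = 7.39e-13). Set 3 was thus the highest for Irf1 and the lowest for Irf8, and neither gene came near 0 in any set. Of 8 members of the IRF family tested, these 2 rose and 6 did not pass the test, among them Irf9, a DNA-binding partner of Stat2, at 0.30. Batf2, a basic leucine zipper factor, rose by 1.75 ± 0.32 with set values of 1.80, 2.04 and 1.41.

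Among the receptor, kinase and STAT genes that carry the signal, 2 of 10 tested rose. Stat2 had 0.82, 1.04 and 1.08 in the 3 sets (mean 0.98 ± 0.14, adjusted p = 1.96e-05), and Stat3 had 0.78, 1.04 and 0.76 (mean 0.86 ± 0.15, adjusted p = 6.52e-07). The receptor chains and kinases did not pass the test, with means of -0.15 for Ifngr1, -0.11 for Ifngr2, -0.06 for Jak1 and 0.19 for Jak2. The list's median was 0.020, against -0.0079 over all features.

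Socs1, the inhibitor of the receptor's kinases, rose with the first targets. Set values were 2.81, 2.90 and 3.17, a mean of 2.96 ± 0.18 or 7.78-fold (adjusted p = 1.57e-18), and its 2 probes gave 2.74 and 3.18. Cish, another member of the same inhibitor family, rose by 0.62 ± 0.28 (adjusted p = 0.00147), but its adjusted p was 0.0972 without set 1 and 0.0693 without set 2. The other 10 of 12 feedback genes and phosphatases did not pass the test, including Socs3 at -0.12. Regulators outside that list were raised too. Zfp36, an RNA-binding protein that speeds decay of cytokine mRNAs, had 2.70, 2.90 and 2.79 (mean 2.80 ± 0.10, adjusted p = 8.67e-10), and Pim1, a serine/threonine kinase, had 1.44, 1.61 and 1.41 (mean 1.49 ± 0.11, adjusted p = 4.05e-06).

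The promoters of 7 strongly raised genes are shown, and each printed window holds the gamma activated sequence, a core motif bound by IRF proteins, or both. Both are in the windows of Irgm2 and Igtp, the gamma activated sequence alone is in that of Irf1, and the core alone is in those of Socs1, Cxcl9, Gbp2 and Irgm1. Each line gives the 250 bases before the gene's start from RefSeq (GRCm38.p6), on the gene's strand, with motif letters in capitals. The motifs searched, on both strands, were TTCNNNGAA for the gamma activated sequence and GAAANNGAA (the core of the interferon response element), and neighbouring matches can overlap. Irgm2 and Igtp were added after their values were seen. The windows are chr11:53769764-53770013 (+) for Irf1, chr16:10785537-10785786 (-) for Socs1, chr5:92328080-92328329 (-) for Cxcl9, chr3:142620413-142620662 (+) for Gbp2, chr11:48871421-48871670 (-) for Irgm1, chr11:58214727-58214976 (+) for Irgm2 and chr11:58199306-58199555 (+) for Igtp.
Irf1: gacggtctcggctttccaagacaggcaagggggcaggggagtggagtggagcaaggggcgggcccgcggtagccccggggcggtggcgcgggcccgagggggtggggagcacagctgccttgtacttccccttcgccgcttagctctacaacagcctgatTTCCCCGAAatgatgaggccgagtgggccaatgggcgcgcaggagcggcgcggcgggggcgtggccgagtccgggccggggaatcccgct
Socs1: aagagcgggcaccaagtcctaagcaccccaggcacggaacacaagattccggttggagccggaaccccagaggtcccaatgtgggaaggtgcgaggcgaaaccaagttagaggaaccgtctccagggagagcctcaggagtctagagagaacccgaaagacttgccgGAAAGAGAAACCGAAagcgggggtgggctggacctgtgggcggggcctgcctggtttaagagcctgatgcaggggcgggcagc
Cxcl9: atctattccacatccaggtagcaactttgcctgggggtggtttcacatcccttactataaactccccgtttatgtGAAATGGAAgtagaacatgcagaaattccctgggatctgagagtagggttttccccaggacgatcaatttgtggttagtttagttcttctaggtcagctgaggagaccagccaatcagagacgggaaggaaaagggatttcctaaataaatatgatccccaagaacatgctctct
Gbp2: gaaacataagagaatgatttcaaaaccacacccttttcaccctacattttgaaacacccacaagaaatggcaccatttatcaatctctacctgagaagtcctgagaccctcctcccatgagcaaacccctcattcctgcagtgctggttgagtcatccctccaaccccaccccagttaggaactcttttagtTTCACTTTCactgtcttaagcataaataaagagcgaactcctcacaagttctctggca
Irgm1: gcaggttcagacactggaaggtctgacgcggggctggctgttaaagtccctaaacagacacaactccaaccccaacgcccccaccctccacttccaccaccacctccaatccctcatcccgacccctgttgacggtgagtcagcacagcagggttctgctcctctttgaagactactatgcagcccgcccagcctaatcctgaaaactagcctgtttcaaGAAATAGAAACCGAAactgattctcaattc
Irgm2: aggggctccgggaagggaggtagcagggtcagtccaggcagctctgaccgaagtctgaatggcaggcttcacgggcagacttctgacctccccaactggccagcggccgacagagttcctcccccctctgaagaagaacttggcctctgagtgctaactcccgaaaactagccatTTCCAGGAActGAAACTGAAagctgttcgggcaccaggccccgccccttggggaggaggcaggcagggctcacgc
Igtp: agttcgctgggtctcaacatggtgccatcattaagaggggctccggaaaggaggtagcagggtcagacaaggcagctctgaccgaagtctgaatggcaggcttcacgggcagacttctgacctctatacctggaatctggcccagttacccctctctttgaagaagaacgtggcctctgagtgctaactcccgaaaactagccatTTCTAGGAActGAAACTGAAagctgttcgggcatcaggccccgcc

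The Irf1 window held a gamma activated sequence, TTCCCCGAA, 90 to 82 bases before the start, and a window at its other annotated start (chr11:53770223-53770472) held neither motif. Socs1 held overlapping response cores, GAAAGAGAA and GAAACCGAA, between 83 and 69 bases before the start, and Irgm1 held a similar overlapping pair, GAAATAGAA and GAAACCGAA, between 30 and 16 bases before it. Irgm2 and Igtp each held a gamma activated sequence followed after 2 bases by a core, GAAACTGAA, at 64 to 56 bases before the start in Irgm2 and at 34 to 26 in Igtp. Of the raised genes, 79 had a window in the table, and 17 (21.5%) held the gamma activated sequence, 17 (21.5%) the response core and 30 (38%) at least 1 of them. Trim21, Trex1 and Ltb4r1 were among the raised genes that held neither. Over the 7761 tested genes with a window the shares with the gamma activated sequence, the core and at least 1 of them were 7.49%, 7.74% and 14.2%. Over all 32851 windows the gamma activated sequence was in 7.02% and the core in 7.13%. Of 10 lowered genes with a window, 2 (Bcl6 and Tgif1) held the gamma activated sequence. A match is a description of letters, and binding was not measured.

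All 4 tested immunity-related GTPases rose, and their median of 2.92 was the highest of the 22 gene lists examined. Some of these proteins disrupt vacuoles that hold intracellular pathogens, and others, among them the Irgm proteins, regulate those. Irgm2 had 3.17, 3.20 and 2.92 in sets 1 to 3 (mean 3.09 ± 0.15, 8.54-fold, adjusted p = 6.27e-16). Iigp1 had 2.81, 3.42 and 2.66 (mean 2.96 ± 0.40, adjusted p = 7.39e-13). Igtp stood at 2.57, 2.69 and 2.45 (mean 2.57 ± 0.12, adjusted p = 5.17e-14). For Tgtp1 the sets gave 3.08, 3.32 and 2.21 (mean 2.87 ± 0.58, adjusted p = 2.06e-11), with 1.82 and 3.92 at its 2 probes. Tgtp1 has a near-identical copy, Tgtp2, and the files do not say whether the probes tell them apart.

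Guanylate-binding proteins, GTPases that act beside that family, rose in 2 of 3 tested members. Gbp3 had 1.81, 1.73 and 1.85 (mean 1.80 ± 0.06, adjusted p = 9.93e-09), and its 2 probes gave 2.18 and 1.23, the lower of them with no value in set 1. Set 1 thus rests on the higher probe alone, which gave 1.81, 2.17 and 2.55, so the SD of 0.06 does not show that the sets agree. Gbp8 had 1.01, 1.39 and 1.00 (mean 1.13 ± 0.22, adjusted p = 0.00355) and an adjusted p of 0.489 without set 2. Gbp4, at 0.03, did not pass the test.

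Several textbook targets were left out of the test because another group of the series had values in fewer than 2 sets. When the filter was applied to the IFNG 1 h sets alone, 12194 features were tested, of which 131 rose and 16 fell. Of these features 605 were new, and 13 of the new ones rose and 0 fell. The new ones entered because IFNG 1 h had values where another group lacked them, so their counts and p-values are given as description only. Cxcl10, a T cell chemokine, had 3.25, 3.14 and 3.75 (mean 3.38 ± 0.33, adjusted p = 2.19e-11). The GTPase Irgm1 had 3.17 and 3.08 in sets 1 and 3 with no value in set 2 (mean 3.12 ± 0.06, n = 2, adjusted p = 7.39e-10). Gbp2 had 2.97, 3.40 and 1.70 (mean 2.69 ± 0.88, adjusted p = 7.12e-09), and the GTPase Ifi47 had 1.97, 2.62 and 2.02. For Gbp2 set 3 was the lowest by more than 1 log2 unit. The probes of Gbp2b differed, at 2.96, 3.86 and 2.28 for one and at 2.06 and 0.61 in sets 2 and 3 for the other, which had no value in set 1. Cxcl11 had 2.48 and 3.16 in sets 2 and 3, the antiviral gene Rsad2 0.68, 1.05 and 1.21, and the monocyte chemokine Ccl2 0.75, 0.64 and 1.39.

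Cxcl9, a ligand of CXCR3, a chemokine receptor of activated T cells, was the most raised chemokine among the named genes that passed the filter. Of 3 such ligands it was the one that passed the filter, with 2.39, 2.60 and 2.44 (mean 2.48 ± 0.11, 5.56-fold, adjusted p = 1.03e-16). The values of Cxcl10 and Cxcl11 above are description only. On the list of other chemokines and cytokines 1 of 25 tested rose, where 1.00% of all features rose. It was the monocyte chemokine Ccl12, at 0.69 ± 0.09 (adjusted p = 0.0112, 0.271 without set 1 and 0.527 without set 2). Outside that list, the chemokine gene Cxcl12 rose by 1.04 (adjusted p = 8.38e-05) and the TNF family ligand gene Tnfsf14 by 1.44 (adjusted p = 2.09e-08). The probes of Cxcl12 differed, at 1.55 and 0.08. Inflammatory cytokines that macrophages release on contact with bacteria did not pass the test, with means of 0.32 for Tnf, -0.05 for Il1b, -0.06 for Il6 and 0.03 for Ifnb1.

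The antiviral interferon targets were raised in part by 1 h. Of 30 tested, 13 rose and 0 fell (21 above 0 and 0 below 0 at an unadjusted p under 0.05), all 30 means were above 0, and the median was 0.616. The share that rose over all features was 1.00%. Leaving out set 1, 2 or 3 gave 9, 10 and 14 rises. Trim21, a cytosolic antibody receptor and ubiquitin ligase, had 1.82, 1.85 and 1.96 (mean 1.88 ± 0.07, adjusted p = 3.17e-10). Parp14, an ADP-ribosyltransferase, had 1.58, 1.67 and 2.03 (mean 1.76 ± 0.24, adjusted p = 5.74e-11). The DNA-binding Ifi204 had 1.47, 1.42 and 1.51 (mean 1.47 ± 0.05), and its relative Ifi203 had 1.73, 1.24 and 1.14. Members that respond to type I interferon did not all pass the test: Isg15 was at 0.67, Mx1 at 0.53, Oas1a at 0.15 and Isg20 at 0.05. The value of Mx1 averages 2 probes that differed, 1 with a mean of 0.12 and the other with 0.71, 1.11 and 1.01 in sets 1 to 3. Trex1, an exonuclease that degrades cytosolic DNA and is not on the list, had 1.85, 1.71 and 1.31 (mean 1.62 ± 0.28, adjusted p = 8.27e-11).

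Several surface molecules were called raised, where 1.00% of all features rose. Among co-stimulatory, checkpoint and Fc receptor genes 4 of 9 tested rose. Cd274, the gene of the checkpoint ligand PD-L1, had 1.96, 2.16 and 1.78 (mean 1.97 ± 0.19, adjusted p = 3.73e-12). Cd83, a membrane protein found on mature dendritic cells, had 1.67, 1.46 and 1.66 (mean 1.60 ± 0.12, adjusted p = 1.61e-06). The high-affinity Fc receptor gene Fcgr1 rose by 0.82 ± 0.13 (adjusted p = 4.68e-07) and Fcgr3 by 0.77 ± 0.24 (adjusted p = 0.00121, and 0.194 without set 1). Cd40, at 0.61, and Cd86, at -0.13, did not pass. Ltb4r1, the leukotriene B4 receptor, is on no list and had 1.58, 1.52 and 1.72 (mean 1.61 ± 0.10, adjusted p = 3.17e-10).

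Of 14 tested genes on the list of MHC class I and peptide processing 1 rose, where 1.00% of all features rose. It was the peptide transporter Tap1, with 0.86, 0.84 and 0.39 (mean 0.70 ± 0.27, adjusted p = 0.00953, 0.115 without set 1 and 0.636 without set 2). H2-T24, an MHC class I gene outside that list, rose by 0.56 (adjusted p = 0.00839, 0.0882 without set 1 and 0.305 without set 2). The proteasome subunits Psmb8, at 0.16, and Psmb9, at 0.10, did not pass. Among 6 MHC class II genes limma called 0 changed (0 at an unadjusted p under 0.05), with means from -0.07 to 0.07, and their master activator Ciita stood at 0.05. Microbicidal and metabolic effectors gave 0 calls among 16 (1 at an unadjusted p under 0.05), with Nos2, the inducible nitric oxide synthase, at 0.04 and Ido1, which degrades tryptophan, at 0.08.

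Of 14 NF-kB subunit and feedback genes 2 rose, where 1.00% of all features rose. Bcl3, an atypical IkB protein, had 1.90, 1.45 and 1.03 (mean 1.46 ± 0.43, adjusted p = 1.66e-06), and the kinase Map3k8 had 1.09, 1.11 and 1.41 (mean 1.21 ± 0.18, adjusted p = 1.06e-06). Feedback inhibitor Tnfaip3 was at 0.04 and the subunits Rela and Relb at 0.03 and -0.13. Of 21 early response transcription factors Atf3 and Mafk rose, by 0.86 and 0.64, and Fos fell. Atf3 had an adjusted p of 0.0789 without set 2. In the list of 16 cell death genes 1 rose, the inflammatory caspase Casp4, at 0.62 ± 0.21 (adjusted p = 0.00394, and 0.306 without set 3).

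The 15 falls reached at most -1.43, the value of Myc. Myc, the growth-promoting transcription factor, had -1.50, -1.06 and -1.73 (mean -1.43 ± 0.34, adjusted p = 7.1e-05). Tgif1, a homeobox repressor, had -0.74, -0.68 and -0.97 (mean -0.80 ± 0.15, adjusted p = 1.93e-06). Those 2 were called without any 1 set, and the other falls were not called without at least 1 set. Bcl6, a transcriptional repressor, had -0.96, -0.86 and -0.81 (mean -0.88 ± 0.08, adjusted p = 0.00539, and 0.459 without set 1 and 0.0915 without set 2). On the list of Myc, Id and growth genes, Myc and Bcl6 were the 2 falls among 17 tested, beside 1 rise, Id1, an inhibitor of helix-loop-helix factors, at 0.97 ± 0.11 with 1.57 and 0.38 at its 2 probes.

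MAPK and G protein feedback was the list with the lowest median, -0.161. Of its 13 tested genes 3 fell, where 0.129% of all features fell. Rgs1, a regulator of G protein signalling, had -0.83 and -1.43 in sets 2 and 3 and no value in set 1 (mean -1.13 ± 0.43, n = 2, adjusted p = 0.000874). Without set 3 its adjusted p of 0.328 rests on the single value of set 2, which is assumed to vary like the other groups. Its relative Rgs2 had -1.004, -0.68 and -1.34 (mean -1.01 ± 0.33, adjusted p = 0.00104, and 0.117 without set 1). Dusp1, a phosphatase that inactivates MAP kinases, had -0.98, -0.93 and -1.03 (mean -0.98 ± 0.05, adjusted p = 0.0352, and 0.142 without set 1 and 0.61 without set 2). Fos, an AP-1 subunit, had -0.58, -0.31 and -1.01 (mean -0.63 ± 0.35, adjusted p = 0.00791, and 0.201 without set 1 and 0.061 without set 2). Set 2 held the value nearest to 0 for Rgs2 and Fos, as for Myc.

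Growth factor gene Pdgfb fell by 0.79 ± 0.21 (adjusted p = 0.0394, 1 without set 1 and 0.086 without set 3), the hyaluronidase gene Hyal1 fell by 0.68 ± 0.21 (adjusted p = 0.00297, 0.0562 without set 2 and 0.106 without set 3), and Gins3, a replication factor, fell by 0.56 ± 0.12 (adjusted p = 0.0388, 0.774 without set 1 and 0.421 without set 2). Cell cycle and replication genes gave 0 calls among 22 (0 at an unadjusted p under 0.05). The T, B and NK cell markers gave 0 of 11 (0 unadjusted), the fibroblast, epithelial and endothelial markers 0 of 11 (1 unadjusted) and the housekeeping genes 0 of 9 (0 unadjusted), all by limma. The shares called over all features were 1.00% higher and 0.129% lower.

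**Figure D2:**
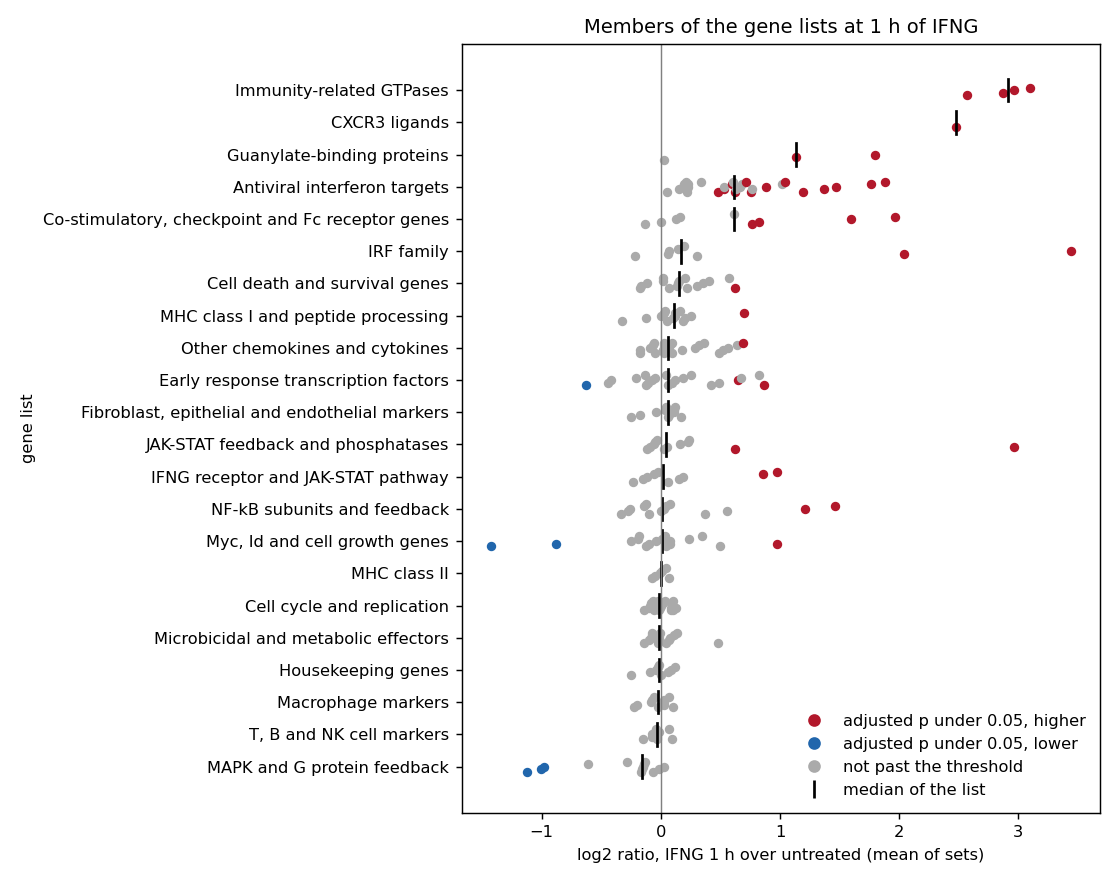
Each point is the mean log2 ratio of IFNG 1 h over untreated of a tested member of a gene list, red where it rose and blue where it fell at an adjusted p under 0.05, grey otherwise, and the black bar is the median of the list. The 4 immunity-related GTPases lie above 2.5 and the list medians run down to -0.161 in MAPK and G protein feedback, while the members of the MHC class II list lie between -0.07 and 0.07.

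The later times were each measured against untreated cells of their own time. Of the 116 raised genes 110 (94.8%) were also raised at 2 h, where they made up 33.5% of the 328 raised there (2.83% of all features), and 100 (86.2%) at 4 h, where they made up 13.6% of 733 (6.32%). In the direct test of 2 h minus 1 h, 53 features were higher at 2 h (0.457%) and 0 lower (0%) by limma, with 165 lower at an unadjusted p under 0.05, and 30 of the 116 were among the 53. The count of 53 was 2 without set 1 and 12 without set 2. For 4 h minus 1 h, 348 features were higher (3.00%) and 226 lower (1.95%), with 148 and 42 without set 1 and 224 and 121 without set 2. Of the 116, 42 were higher at 4 h than at 1 h and 11 were lower. The 116 were picked for high values at 1 h. Those values are subtracted in these differences, which favours a downward shift in advance.

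The largest gains by 4 h were those of Gbp8 and Ly6i. Gbp8 stood at 1.13 ± 0.22, 3.48 ± 0.73 and 5.01 ± 0.28 at 1, 2 and 4 h (SD, n = 3 each), which put it 2.35 ± 0.34 (SE) higher at 2 h than at 1 h (adjusted p = 6.71e-05) and 3.88 ± 0.34 higher at 4 h (adjusted p = 1.83e-10). Ly6i, a lymphocyte antigen 6 family gene, stood at 1.34, 3.19 and 4.50 in the same order. Iigp1 stood at 2.96, 4.92 and 5.54, and Tgtp1 at 2.87, 4.82 and 5.57. Without set 1 the 2 h gains of Iigp1, Tgtp1 and Gbp3 had adjusted p of 0.1, 0.476 and 0.439, and without set 2 those of Tgtp1 and Gbp3 had 0.0645 and 0.0507. Cxcl9 stood at 2.48, 4.00 and 4.90, and Cd274 at 1.97, 3.54 and 3.44.

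Genes not called at 1 h appeared among the largest gains by 4 h. Cd40, a co-stimulatory receptor, was at 0.61, 2.02 and 3.43, and F3, the coagulation initiator tissue factor, at 0.50, 1.82 and 3.28. The antiviral targets had 25 and 26 of 30 raised at 2 h and 4 h, and the MHC class I genes had 8 and 11 of 14. The shares raised over all features were 2.83% at 2 h and 6.32% at 4 h. MHC class II had 3 of 6 raised at 4 h, and cell cycle genes had 12 of 22 lowered at 4 h (6.01% of all features).

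Among the transcription factors and feedback genes, Irf1 and Socs1 had no difference between times that was called, while Batf2 was higher by 1.02 ± 0.22 at 2 h (adjusted p = 0.0174) and by 1.14 ± 0.22 at 4 h (adjusted p = 0.000696). In the receptor and JAK-STAT list 4 of 10 genes were higher at 4 h than at 1 h, against 3.00% of all features. Irf1 was at 3.45, 3.67 and 3.86 and Socs1 at 2.96, 3.00 and 2.69. Their differences of 4 h minus 1 h were 0.42 ± 0.26 for Irf1 (adjusted p = 0.566) and -0.27 ± 0.20 for Socs1 (adjusted p = 0.66), smaller than the gains of Gbp8 or Iigp1. Trim21 was at 1.88, 2.18 and 1.31 with no call in either difference. Tnfsf14, a TNF family ligand also called LIGHT, was at 1.44 ± 0.09, 0.78 ± 0.14 and 0.00 ± 0.21, and was lower at 4 h than at 1 h by a difference of -1.44 ± 0.22 (adjusted p = 2.25e-05). Sla, Pax6, Esco2 and Kifc1 were also lower at 4 h, by differences of -1.52, -1.57, -1.54 and -1.36, but none of them was called at 1 h. The call for Kifc1 had an adjusted p of 0.287 without set 1 and 0.0841 without set 3.

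Of the 15 lowered features 5 (33.3%) were also lowered at 2 h, where they made up 7.14% of the 70 lowered there (0.604% of all features), and 3 (20%) at 4 h, while 6 were raised at 4 h. In the direct tests 3 of the 15 were higher at 2 h and 9 were higher at 4 h than at 1 h. The 15 were picked for low values at 1 h. Those values are subtracted in both differences, which favours an upward shift in advance. Myc was at -1.43 ± 0.34, -1.06 ± 0.09 and -0.26 ± 0.16 at 1, 2 and 4 h (difference of 4 h minus 1 h 1.17 ± 0.33, adjusted p = 0.0271). Rgs2 was at -1.01, -0.03 and 0.82 (difference 1.83 ± 0.27, adjusted p = 1.1e-05), and Bcl6 at -0.88, -0.32 and 0.62 (difference 1.49 ± 0.27, adjusted p = 0.000208). Hyal1 and Gins3 were at -1.10 and -1.09 at 4 h, and their differences were not called.

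**Figure D3:**
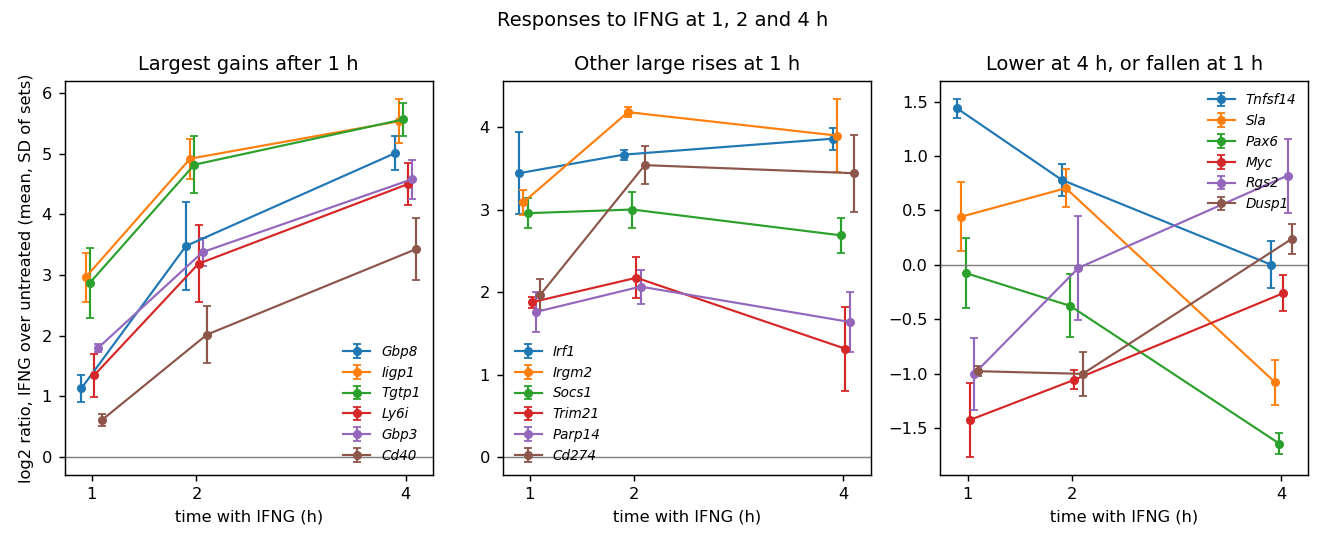
Mean log2 ratios of IFNG over untreated, with bars of 1 SD over the sets, are plotted against time with IFNG in h for the largest gains after 1 h on the left, other large rises at 1 h in the middle, and genes that were lower at 4 h or fell at 1 h on the right. Gbp8 climbs to 5.01 at 4 h while Irf1 lies between 3.45 and 3.86, and Tnfsf14 is at 0.00 at 4 h.

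IFNG was next set against LPS given for the same hour. The labels do not say whether IFNG 1 h and LPS 1 h share their untreated RNA, so only the direct difference was tested, and 115 features were higher with IFNG (0.992%) and 181 lower (1.56%). Without set 1 those counts were 47 and 98, and without set 2 they were 60 and 109. Of the 116 features raised by IFNG 68 were higher than with LPS, 6 were lower and 42 were not called. Of the 15 lowered ones 6 were lower than with LPS. Both groups of features were picked by their IFNG 1 h values, which also enter the difference. The counts were thus tilted in advance, towards higher for the 116 and towards lower for the 15.

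All 4 tested immunity-related GTPases were higher with IFNG than with LPS, as were 1 of 3 guanylate-binding proteins and 2 of 8 IRF genes. That held for 0.992% of all features. Irgm2 was at 3.09 ± 0.15 with IFNG and at -0.28 ± 0.07 with LPS (difference 3.37 ± 0.23 SE, adjusted p = 2.18e-12). Iigp1 was at 2.96 with IFNG and -0.29 with LPS, Tgtp1 at 2.87 and 0.03, and Igtp at 2.57 and -0.13, in the same order. Irf1 was at 3.45 ± 0.50 with IFNG and at 0.60 ± 0.39 with LPS (difference 2.85 ± 0.26, adjusted p = 1.95e-10), and Socs1 at 2.96 ± 0.18 and 0.55 ± 0.19 (difference 2.41 ± 0.20, adjusted p = 1.83e-11). Among the antiviral targets 8 of 30 were higher with IFNG and 1 was lower.

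The largest differences in favour of LPS were those of Dusp1, Nfkbiz, Myc, Phlda1 and Egr1. Dusp1 was at -0.98 ± 0.05 with IFNG and at 3.94 ± 0.46 with LPS (difference -4.92 ± 0.35, adjusted p = 2.18e-12). Myc was at -1.43 ± 0.34 with IFNG and at 2.84 ± 0.27 with LPS (difference -4.27 ± 0.33, adjusted p = 4.38e-12), so both genes were lowered by IFNG and raised by LPS. Nfkbiz, an atypical IkB protein, was at 0.56 with IFNG and 5.04 with LPS, Phlda1 at 0.11 and 4.31, and the immediate-early factor Egr1 at 0.10 and 4.14. The Egr1 difference of -4.04 ± 0.68 had an adjusted p of 9.37e-05, and 0.0699 without set 1. Of the early response transcription factors 11 of 21 were lower with IFNG than with LPS, of the NF-kB genes 9 of 14, and 6 of 13 on the list of MAPK and G protein feedback. The share lower over all features was 1.56%.

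Other genes raised by IFNG were lower than with LPS or not called. Zfp36 was at 2.80 ± 0.10 with IFNG and at 2.96 ± 0.70 with LPS, a difference of -0.17 ± 0.37 (adjusted p = 1). Cd83 was at 1.60 ± 0.12 with IFNG and at 3.41 ± 0.21 with LPS (difference -1.81 ± 0.30, adjusted p = 7.17e-05), and Pim1 at 1.49 ± 0.11 and 2.73 ± 0.11 (difference -1.24 ± 0.29, adjusted p = 0.00891). Bcl3 was at 1.46 ± 0.43 and 1.02 ± 0.47, a difference that was not called.

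**Figure D4:**
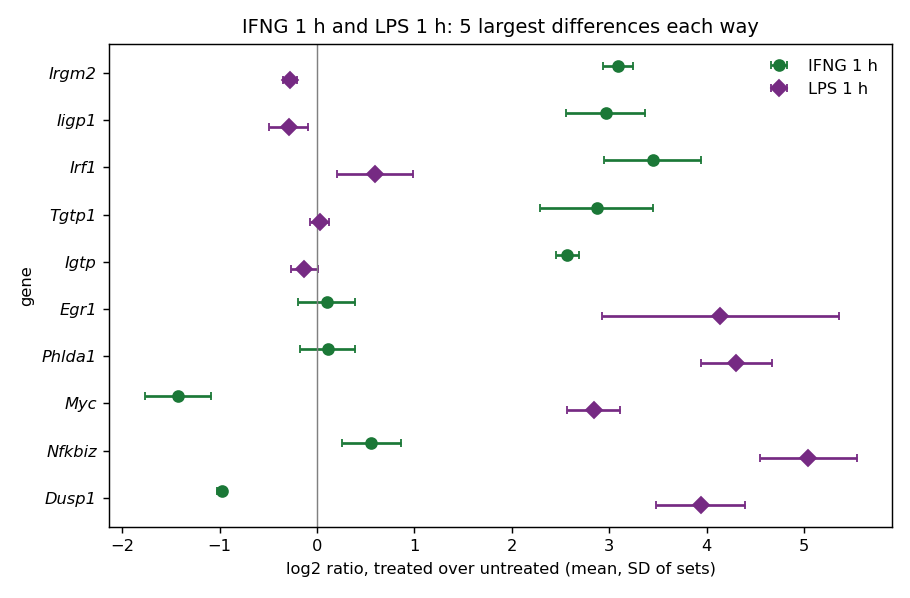
Mean log2 ratios of treated over untreated cells, with bars of 1 SD over the sets, are shown for the 5 genes with the largest difference each way, with circles for IFNG 1 h above diamonds for LPS 1 h. Irgm2 lies at 3.09 with IFNG and -0.28 with LPS, and Dusp1 at -0.98 with IFNG and 3.94 with LPS.

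The sets varied in size of response. Of 114 raised features with a value in every set, the smallest value was in set 1 for 43, in set 2 for 17 and in set 3 for 54, and the largest was in set 2 for 58. The medians over those features were 0.83, 0.908 and 0.861 in sets 1, 2 and 3. Genes with several probes did not always agree: Ccr1, a chemokine receptor, gave 1.91 and 0.10, Cxcl12, a homeostatic chemokine, 1.55 and 0.08, and Adora3, an adenosine receptor, 1.40, 1.35 and 0.13. The gene means of 1.01, 1.04 and 0.96 for those genes average probes that differ by more than 1 log2 unit.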

How the data were processed

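Two-colour arrays of 16281 probes were analysed, as 96 arrays of 16 groups, from the deposited log2 values (Cy5 over Cy3; channel roles per the labels). The sources used here do not give how the authors corrected background, normalised or centred them. The largest value, 6.643856, is log2 of 100. Values of exactly 0 (1453 to 2080 on the 6 arrays of IFNG 1 h) were read as missing. Signs were turned on arrays whose Cy3 channel held the treated RNA, and both dye orders of a set were averaged. Probes needed a value in at least 2 of 3 sets of every group, which kept 13698 and left out 2583. Probes were named from the platform annotation, updated with RefSeq (13738 with 1 gene, 52 with several, 2491 with none), and probes of a gene were averaged (1917 genes). Per-sample columns not used number 0.

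Testing was done in R 4.3.3 with limma 3.58.1 (package version 1.17.8 of data.table read the files), with a mean for each group over 48 set values, empirical Bayes moderation (up to 32 residual and 5.885 prior degrees of freedom), two-sided, Benjamini-Hochberg over all features at 0.05. The IFNG 1 h mean was tested against 0, and differences from IFNG 2 h, IFNG 4 h and LPS 1 h as contrasts. Named genes are the 20 largest rises and 10 largest falls among called genes with 1 sign on at least 5 arrays, the 5 largest differences each way with 1 sign in all sets, members of 22 lists and the direction check genes Irf1, Socs1, Cxcl9 and Gbp2; a further check gene is not reported here. The unnamed probes 14631, 4033 and 18288, among the largest rises (2.32, 1.70 and 1.69), have no gene name here. The members and lists were chosen with earlier results of these data known.

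Set numbers pair IFNG 1 h with LPS 1 h: deviations from the group means correlated at 0.583, 0.259 and 0.601 for sets 1 to 3. On simulated set values with the real spreads (11589 features), the IFNG 1 h test recovered 80% of 50 rises of 0.5, 96% of 50 rises of 1, 100% of 50 rises of 2 and 100% of 50 falls of 1 (log2), and 13 of 201 calls were false. Alternatives changed the handling of zeros, centring, scale, filter, probes, dye orders, fit and sets. Promoters came from the RefSeq windows, and motifs and plots were made in Python 3.11.15 with pandas 2.3.3 and matplotlib 3.10.9.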

Additional observations from a re-analysis of the deposited data

Results flagged for a closer look

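The results here are differences between 2 groups that passed the direct test, in log2 units with SE. Between IFNG 2 h and IFNG 1 h, Gbp8 differed by 2.35 ± 0.34, Iigp1 by 1.96 ± 0.30, Tgtp1 by 1.95 ± 0.34, Ly6i by 1.84 ± 0.23 and Gbp3 by 1.58 ± 0.27, all higher at 2 h.

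Between IFNG 4 h and IFNG 1 h, Gbp8 differed by 3.88 ± 0.34, Ly6i by 3.16 ± 0.23, Cd40 by 2.81 ± 0.33, Gbp3 by 2.78 ± 0.27 and F3 by 2.78 ± 0.34, all higher at 4 h. Lower at 4 h were Pax6 (-1.57 ± 0.28), Esco2 (-1.54 ± 0.24), Sla (-1.52 ± 0.29), Tnfsf14 (-1.44 ± 0.22) and Kifc1 (-1.36 ± 0.35). Of these 5, Tnfsf14 alone was called at 1 h, and the IFNG 1 h set values of Kifc1 spread from 1.18 in set 1 to -0.26 in set 2.

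Between IFNG 1 h and LPS 1 h, Irgm2 differed by 3.37 ± 0.23, Iigp1 by 3.25 ± 0.30, Irf1 by 2.85 ± 0.26, Tgtp1 by 2.84 ± 0.34 and Igtp by 2.70 ± 0.24, all higher with IFNG. Lower with IFNG were Dusp1 (-4.92 ± 0.35), Nfkbiz (-4.49 ± 0.37), Myc (-4.27 ± 0.33), Phlda1 (-4.20 ± 0.51) and Egr1 (-4.04 ± 0.68). For Dusp1 and Myc every set was below 0 with IFNG.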

How the results depend on the processing

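Of the results, the count of 116 raised genes at IFNG 1 h was 39 when tested against a change of 0.5, 256 with treated RNA in Cy5 alone and 181 with treated RNA in Cy3 alone, settings that ask for a larger change or use 1 dye order of each set. The count of 15 lowered genes was 1 against a change of 0.5, 30 with the IFNG 1 h sets alone, 40 with arrays scaled to one spread, 24 with a dye term and 169 with treated RNA in Cy5 alone; the cause was not tested. Leaving out 1 set from all groups, which leaves 2 sets a group, gave 76 to 112 raised and 4 to 16 lowered genes. It gave 2 to 47 genes higher and 0 lower each time at 2 h than at 1 h (53 and 0 with all sets), 148 to 250 higher and 42 to 155 lower at 4 h than at 1 h (348 and 226), and 47 to 102 higher and 98 to 141 lower with IFNG than with LPS (115 and 181). With the set number as a replicate block, 76 genes were higher and 2 lower at 2 h than at 1 h, 441 and 338 at 4 h, and 160 and 233 with IFNG against LPS, and the block changed the call of 0 of 25 named differences. Deviations by set number correlated at -0.459, -0.1 and 0.019 for the 2 h difference and at -0.265, 0.014 and 0.356 for the 4 h difference, so the numbers were not taken to pair those times. With zeros kept as 0, 1 gene was lower at 2 h than at 1 h. No named gene or named difference changed direction under any alternative run. They had been picked for 1 sign on their arrays or in all sets. Fits on 1 dye order or without 1 set therefore could not reverse them, and counts have no direction to change. Allowing set values from 1 dye order, chosen after seeing the data, gave 122 raised and 16 lowered genes. With 3 sets, 80% of simulated rises of 0.5 were recovered. The simulated noise was drawn independently for each set value, without the deviations by set number that IFNG 1 h and LPS 1 h shared. That share is therefore no bound for the real arrays.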

Other observations

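Cell-surface receptor genes outside the lists were also among those raised at 1 h, and were picked here after their values were seen. Hcar2, a receptor for nicotinic acid and ketone bodies, had 1.37, 1.48 and 1.21 in sets 1 to 3 (mean 1.35 ± 0.14), and Tnfrsf1a, the main TNF receptor, had 1.17, 1.21 and 0.87 (mean 1.08 ± 0.19). The complement receptor C3ar1 had 0.81, 0.84 and 1.29 (mean 0.98 ± 0.27), with an adjusted p of 0.0812 without set 2. Tlr3, which senses double-stranded RNA, was at 0.84 ± 0.15, Il18rap, an interleukin 18 receptor chain, at 0.84 ± 0.18, and Il10ra, the interleukin 10 receptor, at 0.83 ± 0.29. The calls for Tlr3, Il18rap and Il10ra were lost without at least 1 set, with adjusted p of 0.069, 0.0931 and 0.117 without set 1. Hcar2 was at 1.35 with IFNG 1 h and -0.24 with LPS 1 h, and Tnfrsf1a at 1.08 and 0.12, in the same order.

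Further raised genes were also picked after their values were seen. Myd88, the adaptor of most Toll-like receptors, was at 0.57 ± 0.14, and Sting1, the adaptor of cytosolic DNA sensing, at 0.52 ± 0.41 with 0.06, 0.82 and 0.69 in sets 1 to 3, and its adjusted p was 0.449 without set 2 and 0.358 without set 3. Fzd7, a Wnt receptor, had 1.02, 1.46 and 0.90 (mean 1.13 ± 0.29) at 1 h, 1.00 at 2 h and 0.36 at 4 h.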
